A study of Rattus norvegicus with 4 samples.

Results

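Curated non-coding RNAs are transcripts that RefSeq reviewers have recorded as making no protein, and the arrays carried 117 probes for them among 45586 probes in all. They were chosen as the non-control probes whose deposited accession carries the RefSeq prefix for curated non-coding RNA on all 4 arrays, with none dropped for a protein-coding symbol. The 117 probes cover 97 accessions and 94 loci, out of 39498 genes and unnamed transcripts on the array. Of the probes, 110 took a symbol from a rat RefSeq table of assembly GRCr8, and 7 probes of 6 accessions took none. By the table's biotypes the loci are 68 long non-coding RNAs, 14 transcribed pseudogenes, 3 ribosomal RNAs, 3 other structural RNAs (Rn7sl1, Rpph1 and Terc) and 6 without a symbol.

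All 4 samples belong to 1 group. They are NR8383 cells, a macrophage line that was started from cells washed out of the lung of a normal rat, after 20 passages, and they were exposed for 4 h to Printex 90, a manufactured carbon black powder of nanometre-sized particles, at 0.9 cm2/cm2 as labelled. The 4 arrays are separate biological replicates, so the spread between arrays is that between cultures of 1 cell line, with labelling and array differences included. The p-values below compare a probe's spread with that of probes of similar level. Cells kept without particles were not analysed here, so no value below says what the particles do.

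The array measures dye-labelled RNA copies bound to each probe. A level below is log2 of the processed intensity minus the 75th percentile of all probes on that array, so 0 is that percentile. Levels of different probes are not on a common scale and are not compared with each other. Detection means the scanner software's mark for a signal well above background. The arrays differed in brightness and background. The 75th percentile was 109.1, 93.7, 63.7 and 63.8 intensity units on replicates 1 to 4, and the 99th percentile of 308 negative control spots was 27.1 on replicate 1 against 4.95 to 7.40 on the others. Between 37.5% and 40.9% of all probes were detected on an array. Of 10 alveolar macrophage markers, 9 were detected on all 4 arrays and Marco on none, and none of 17 markers of epithelial, fibroblast, endothelial or lymphoid cells was detected on any array.

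Non-coding RNAs work in several ways. Ribosomal RNAs form the core of the ribosome, and most of them are cut from 1 long precursor made by RNA polymerase I in the nucleolus. Small nucleolar RNAs guide the chemical modification of that precursor, and most are cut out of the introns of host transcripts, some of which code for no protein and are degraded in the cytoplasm. Other long non-coding RNAs act in the nucleus on chromatin and splicing or in the cytoplasm on messenger RNAs and microRNAs, and many start next to a protein-coding gene on the opposite strand.

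Many hosts of small nucleolar RNAs belong to the class of genes whose RNA starts with a run of pyrimidines after a C, a feature shared with ribosomal protein genes. In the RefSeq annotation, 7 long non-coding members contain at least 1 small nucleolar RNA gene, and 6 of them have a start site in the promoter table. Their sequences are shown because this group had the highest detection among the long non-coding members. Each runs 5′ to 3′ on the transcribed strand in GRCr8, with the annotated start site at base 51 of 100. Capitals mark a run of at least 8 bases that starts with C and holds only C and T, searched on the transcribed strand and marked whole wherever it overlaps, by as little as 1 base, the window from base 41 to base 70.
Dancr (chr14:34481983-34482082, minus strand): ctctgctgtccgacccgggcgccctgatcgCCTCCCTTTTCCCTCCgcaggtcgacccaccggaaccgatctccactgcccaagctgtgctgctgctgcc
Gas5 (chr13:75836913-75837012, plus strand): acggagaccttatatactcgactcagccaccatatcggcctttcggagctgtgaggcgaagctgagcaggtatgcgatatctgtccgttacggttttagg
LOC100909675 (chr4:12184154-12184253, minus strand): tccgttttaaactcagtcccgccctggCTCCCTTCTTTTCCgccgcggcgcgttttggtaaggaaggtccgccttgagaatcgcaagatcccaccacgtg
LOC100911177 (chr3:176211280-176211379, plus strand): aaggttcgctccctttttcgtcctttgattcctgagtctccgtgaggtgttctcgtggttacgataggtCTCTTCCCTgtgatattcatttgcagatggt
LOC100912041 (chr1:215048285-215048384, plus strand): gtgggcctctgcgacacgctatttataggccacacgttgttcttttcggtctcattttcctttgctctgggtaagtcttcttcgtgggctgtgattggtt
LOC102549726 (chr20:3881158-3881257, plus strand): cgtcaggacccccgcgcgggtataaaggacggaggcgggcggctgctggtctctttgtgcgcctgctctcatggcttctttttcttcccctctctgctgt

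A run touched the window in 3 of these 6 hosts (Dancr, LOC100909675 and LOC100911177), against 4232 of 33469 promoters in the table (12.6%) and 5 of the 54 other members with a promoter there (9.26%). The overlaps are short, with 6 bases of the run inside the window in Dancr and 1 base each in LOC100909675 and LOC100911177. When at least 8 bases of a run had to lie inside the window, a choice made after seeing the data, it was found in 0 of the 6 hosts, 4 of the 54 other members (7.41%) and 7.87% of all promoters. The run in Dancr and LOC100909675 ends before the annotated start, and that in LOC100911177 begins after it. A match is a description of these letters, and its absence in Gas5, LOC100912041 and LOC102549726 says only that the letters are not in this window.

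In these cells 37 of the 117 non-coding probes (31.6%) were detected on all 4 arrays, against 34.5% of all 45586 probes. A further 7 were detected on 1 to 3 arrays, and 73 on none, a state shared by 55.8% of all probes. The overall share was thus near the background of the array, and the kinds of transcript differed within it. All 5 ribosomal probes were detected on all arrays, as were 6 of the 8 probes for hosts of small nucleolar RNAs (75%). Of the 72 other long non-coding probes 12 (16.7%) were, and of the 22 pseudogene probes 8 (36.4%). The pseudogene share rests on 1 locus, since without the 5 probes of Prrc2c it was 3 of 17 (17.6%). Messenger RNA probes of curated records were detected on all arrays in 48.0% of 20495 cases, and probes of predicted non-coding records in 8.66% of 7248.

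**Figure D1:**
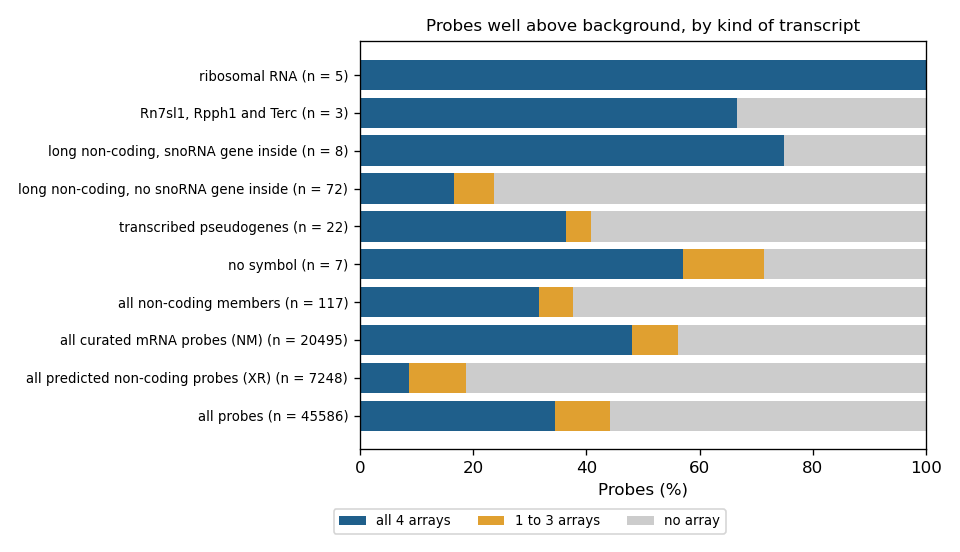
Share of probes (percent, horizontal axis) detected on all 4 arrays (blue), on 1 to 3 arrays (orange) or on none (grey), by kind of transcript, with the number of probes in brackets. Ribosomal probes reach 100% and hosts of small nucleolar RNAs 75%, while other long non-coding RNAs reach 16.7%, against 34.5% of all probes.

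Counted by locus, 28 of 94 loci had at least 1 probe detected on all 4 arrays, 7 had probes detected on some arrays only, and 59 had none. Among long non-coding loci, 6 of the 7 hosts of small nucleolar RNAs and 11 of the 61 others were detected on all arrays. The host group was defined after values were seen. Among the 59 loci without detection, Ceacam6 with 4 probes and Pincl with 3 had the most probes, and Strit1, which codes for a muscle micropeptide in mouse but has a non-coding record here, was another. The probe design moves with this result, because 5 of the 6 detected hosts have a probe printed on 10 spots and 75.6% of the array's 1350 probes with 10 spots were detected on all arrays. Its part in the detection of the hosts was not tested.

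The ribosomal RNAs were detected on every array, and the median of their SDs between replicates was higher than that of the other non-coding members. The precursor, Rn45s, which is processed into most of the mature ribosomal RNAs, has 3 probes. On the first (A_44_P1090387) the level was 7.99, 8.94, 9.33 and 10.01 on replicates 1 to 4 (mean 9.07 ± 0.84 SD, n = 4), a 4.05-fold range. Replicate 1 was lowest and replicate 4 highest. On the second (A_44_P1112711) it was 10.09, 10.41, 10.76 and 11.42 (10.67 ± 0.57), and on the third (A_44_P186336) 10.84, 10.98, 11.42 and 11.84 (11.27 ± 0.46). After this scaling all 3 probes put the replicates in the same order. In unscaled intensity the second probe read 119000, 127200, 110700 and 175100, and the third 200000, 189100, 174800 and 234500. Unscaled, the order differed between the probes, with replicate 4 highest on each.

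The probes named for mature RNAs were also lowest on replicate 1, which was the lowest array for 40.1% of all tested probes. Rn5-8s, which pairs with the large ribosomal RNA in the large subunit, was at 5.23, 5.72, 6.47 and 6.40 (5.95 ± 0.59). Rn18s, the RNA of the small subunit, was at 6.11, 6.75, 7.26 and 6.95 (6.77 ± 0.49). Both were highest on replicate 3, while the Rn45s probes were highest on replicate 4. The mature RNAs are part of the precursor, and where each probe lies was not checked. Which form a probe reads is therefore not settled here, and no difference between precursor and mature RNA is drawn from these values. The median SD of the 5 ribosomal probes was 0.57, against 0.13 for the 33 other non-coding probes tested and 0.16 for all 17530 probes tested.

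The test of spread asked whether a probe varied more between the 4 arrays than probes of similar level. It was an F test of each probe's variance against the limma prior, with Benjamini-Hochberg adjustment over 17530 probes detected on at least 2 arrays, and 83 probes passed at 0.05 (0.473%). Of the 38 non-coding probes tested 1 passed, the Rn45s probe A_44_P1090387 (limma, adjusted p = 0.0375). The other ribosomal probes had adjusted p of 0.12 (Rn5-8s), 0.212 and 0.474 (Rn45s) and 0.25 (Rn18s) in the same limma fit. Before adjustment 6 non-coding probes passed, the 5 ribosomal ones and 1 of Gapdh-ps1, where 5.08% of all probes did. The call rests on single arrays, since the limma adjusted p of the Rn45s probe was 0.156 without replicate 2 and 0.203 without replicate 4. It was also lost when the arrays were not scaled (limma adjusted p = 0.886) and under 4 other settings named in the closing section.

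The size of the ribosomal differences depended on the scaling. The median ribosomal deviation from the probe mean was -0.66, -0.23, 0.27 and 0.57 on replicates 1 to 4 after scaling to the 75th percentile. All 5 probes were lowest on replicate 1 under 5 scalings or background corrections, but 3 of 5 were lowest there when the arrays were not scaled. Without scaling the median of all tested probes itself moved by 0.39, 0.29, -0.32 and -0.35, and the ribosomal median moved by -0.21, -0.011, -0.068 and 0.24. In unscaled intensity, the Rn45s probe A_44_P1090387 read 27730, 45990, 41070 and 65600, a 2.37-fold range. Scaling to 10 spike-in probes, which report RNA added in known amounts, gave ribosomal medians of -0.46, -0.15, -0.007 and 0.55, while the median of all tested probes then stood at 0.15, 0.15, -0.26 and -0.035. The array's overall brightness and its replicate number moved with these values, and their part in the result was not tested. All 4 arrays shared 1 slide, so position on it and replicate cannot be told apart.

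**Figure D2:**
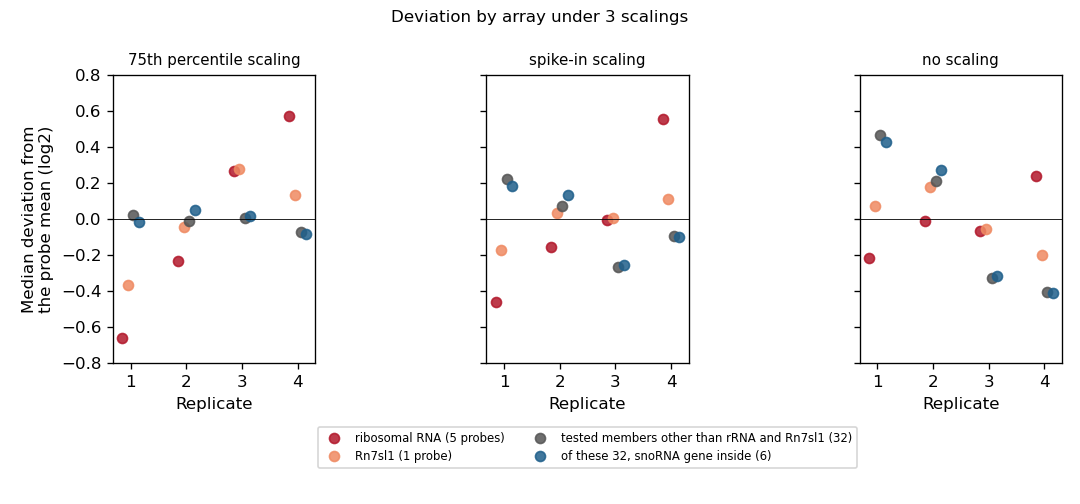
Median deviation from each probe's own mean (log2, vertical axis) on replicates 1 to 4 for ribosomal probes, Rn7sl1, the 32 other tested non-coding probes and the 6 hosts of small nucleolar RNAs among them, after 75th percentile scaling, spike-in scaling or none. Ribosomal probes run from -0.66 to 0.57 after percentile scaling, and the other 32 from -0.074 to 0.024. Unscaled, the other 32 run from -0.41 to 0.47 and with spike-in scaling from -0.26 to 0.22.

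Rn7sl1, the RNA backbone of the signal recognition particle that brings nascent secretory proteins to the endoplasmic reticulum, was at 6.76, 7.09, 7.41 and 7.26 (7.13 ± 0.28). It too was lowest on replicate 1, but its spread did not pass (limma, adjusted p = 0.987), and without scaling it was lowest on replicate 4. The probe named Rpph1 was at 4.88, 4.83, 4.74 and 4.67 (4.78 ± 0.094), with no array apart from the rest. The RefSeq table names this record Rpph1, the RNA subunit of RNase P that trims transfer RNA precursors, but gives it the biotype and synonym of the RNase MRP RNA Rmrp, so which RNA the probe reads is not settled here. Terc, the template RNA of telomerase, was detected on no array. Of a list of 17 small catalytic and structural RNAs, 6 names had a probe (Rmrp and Rpph1 the same one) and 5 were detected on all arrays. Ribosomal RNA, 7SL RNA and the RNase RNAs are made without the poly(A) tail of messenger RNAs, and how the samples were primed for labelling is not given in the sources used here.

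After percentile scaling, the medians of the 6 detected hosts of small nucleolar RNAs had a range of 0.13 over the arrays. For all tested probes that range was 0.12, so the range of the hosts was small but not smaller than this background. With spike-in scaling the range of the hosts was 0.44 and unscaled 0.84, against 0.41 and 0.74 for all tested probes. Gas5, a transcript first known from growth-arrested cells that contains 9 small nucleolar RNA genes, was at 5.08, 4.87, 4.97 and 4.90 (4.96 ± 0.091). LOC100912041 contains 7, among them Snord26, Snord27 and Snord30, and was at 3.56, 3.63, 3.56 and 3.52 (3.57 ± 0.045), the smallest SD of all non-coding probes detected on 4 arrays. Its value on each array is a mean over 10 spots. LOC102549726, with Snord48 and Snord52 inside, was at 4.01, 4.19, 4.01 and 3.91 (4.03 ± 0.12). From the lowest to the highest array these 3 moved by 0.21, 0.11 and 0.29 on the log2 scale.

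LOC100909675, which contains Snord93, was at 3.99, 4.17, 4.11 and 3.95 (4.06 ± 0.10). LOC100911177 contains 3 small nucleolar RNA genes, Snord12 and Snord12c among them, and was at 3.11, 3.01, 3.01 and 2.84 (2.99 ± 0.11). Dancr, a transcript linked to the undifferentiated state of progenitor cells, was at -1.70, -1.29, -1.03 and -1.29 (-1.33 ± 0.28). Dancr therefore had a wider spread than the other hosts, with a signal of 26.0 to 38.4 intensity units, where the lowest detected signal was 10.8 to 22.3. None of the 6 passed the spread test, before adjustment too (limma, adjusted p 0.987 to 0.994), with a median SD of 0.107 against 0.164 for all tested probes. These medians are not alike in probe design. The probes of 5 of the 6 hosts are means over 10 spots, as are 1350 of all 45586 probes, and Dancr has 1 spot. The part of this averaging in the lower median SD was not tested. LOC100909539, with Snord123 inside, was detected on no array by either of its 2 probes.

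The 10-spot probes give the measurement error of single spots within an array. Within an array, the median SD between spots was 0.114 for Gas5, 0.087 for LOC100909675, 0.082 for LOC100911177, 0.091 for LOC100912041 and 0.081 for LOC102549726. The SD between arrays of the spot means was 0.091, 0.105, 0.109, 0.045 and 0.12 for the same 5 probes. For 3 of the 5 probes, LOC100909675, LOC100911177 and LOC102549726, the SD between arrays was the larger, although each array's value is a mean over 10 spots. An SD between single spots overstates the error of such a mean. The smaller SD between arrays of Gas5 and LOC100912041 therefore does not place them within measurement error.

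Snhg4, named as a host of small nucleolar RNAs but with none inside it in this annotation, was detected at 1.27, 1.29, 1.31 and 1.18 (1.26 ± 0.057). Its locus overlaps that of Matr3, a nuclear matrix RNA-binding protein, so which transcript the probe reads was not tested. Of a list of 23 hosts by name, 3 (Gas5, Dancr and Snhg4) matched a symbol with a probe here, and these were detected on all arrays with 0 passing the spread test in limma, before adjustment too. Hosts that carry only a provisional LOC symbol could not match this list, so the count is one of names and not of hosts on the array.

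Among the other long non-coding RNAs, some regulators known from other cells were detected and others were not. Tug1, a nuclear and cytoplasmic transcript named for its rise with taurine in the retina, was at -0.30, -0.33, -0.11 and -0.26 (-0.25 ± 0.096) on 1 probe (A_43_P10908), with no array standing apart. The second Tug1 probe (A_44_P219092) was detected on no array. Oip5-as1, also known as Cyrano and described in the decay of the microRNA miR-7, was detected by both of its probes. They read 0.085, 0.28, 0.57 and 0.41 (0.34 ± 0.21) and 0.074, -0.18, -0.10 and 0.34 (0.033 ± 0.23), and the order of the arrays differed between them. Tincr, described in differentiating skin cells, was detected on 3 arrays and not on replicate 4, with levels of -1.39, -2.55, -2.09 and -2.38 (-2.10 ± 0.51) and its highest value on replicate 1. Miat, a nuclear transcript of neurons and heart, was detected on no array. On the list of 36 nuclear and regulatory long transcripts, 5 had a probe by any record and 4 were detected on all arrays with 0 passing in limma, before adjustment too, namely Tug1, Oip5-as1 (listed under its mouse name) and the messenger-record probes of Sra1 (2.63 ± 0.18) and Ptprv (1.17 ± 0.023).

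The remaining detected long non-coding RNAs, named after their values were seen, carry no role stated here. 2810025M15Rikl was at 5.03, 5.07, 4.94 and 4.74 (4.95 ± 0.15), and Smim30l1 was at 3.67, 3.69, 3.58 and 3.49 (3.61 ± 0.093). Replicate 4 was the lowest for both, with ranges of 0.33 and 0.20 over the 4 arrays. LOC100911627 averaged 2.04 ± 0.11, LOC102550394 0.077 ± 0.11, LOC100911370 -0.41 ± 0.13 and AA926063 -1.43 ± 0.16. LOC100365289 was at 1.34, 1.28, 1.01 and 0.95 (1.15 ± 0.19), with replicates 1 and 2 above replicates 3 and 4. LOC100912312 was at 0.99, 0.37, 0.55 and 0.54 (0.61 ± 0.27), with replicate 1 alone above the rest. The tested long non-coding probes without a small nucleolar RNA gene inside were 13, with Snhg4, Tug1, Oip5-as1 and Tincr among them. Over these 13 the median SD was 0.147, and 0 passed the spread test in limma, before adjustment too.

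**Figure D3:**
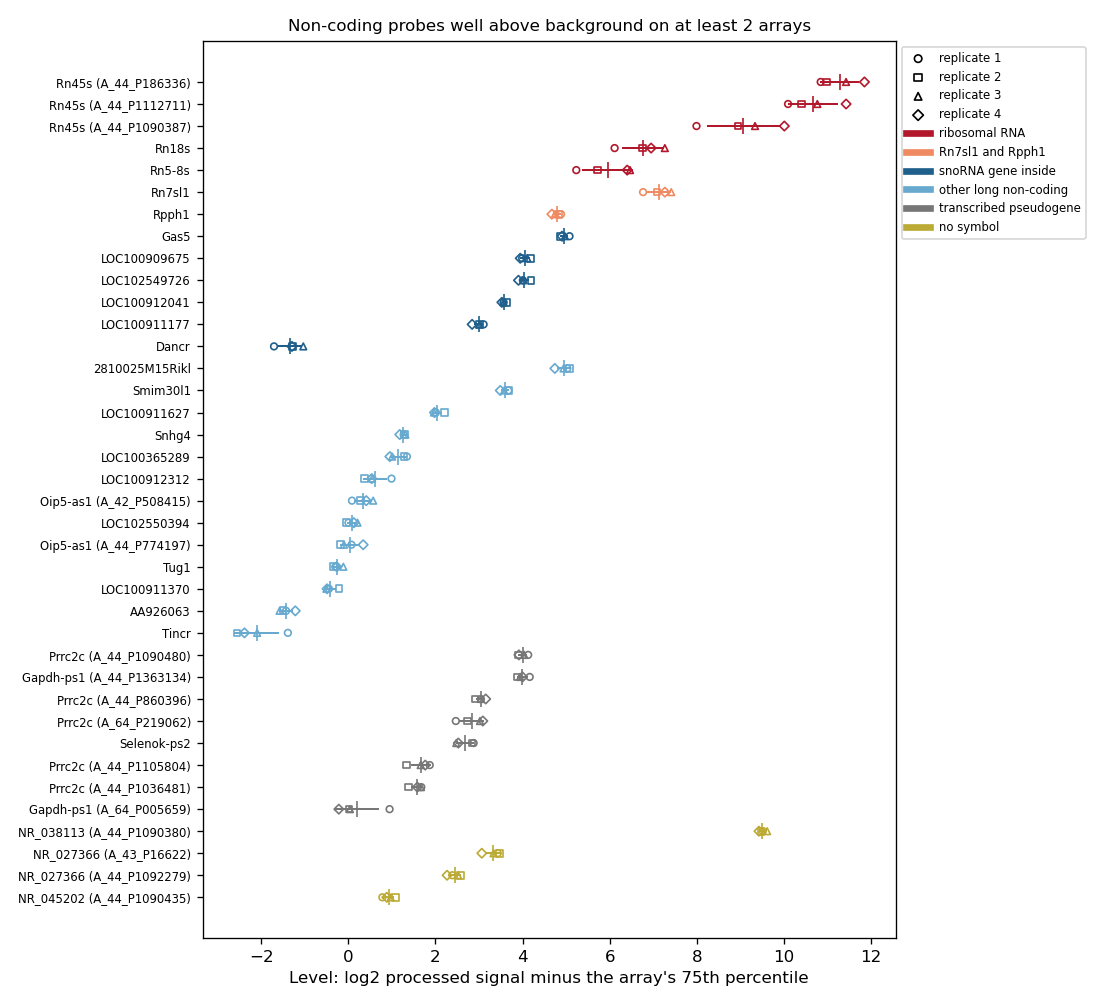
Level of each non-coding probe detected on at least 2 arrays (log2 of processed intensity minus the array's 75th percentile, horizontal axis), with 1 symbol for each replicate, a tick for the mean and a bar for 1 SD (n = 4). Colours give the kind of transcript, and levels are read along a row only. Replicate 1 is the lowest symbol in each of the 5 ribosomal rows, and the Gas5 symbols lie between 4.87 and 5.08.

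Long non-coding RNAs often share a start region with a protein-coding gene on the other strand. Of the 56 long non-coding loci with a promoter in the table, 11 had an opposite-strand protein-coding start within 1000 bases. On all arrays 6 of the 11 were detected, against 10 of the 45 others, and 34.5% of all probes were. Among the 6, Gas5, LOC100911177 and LOC100912041 are also hosts of small nucleolar RNAs. This grouping thus overlaps that of the hosts, and the difference was not tested. In 3 of the detected pairs the partner was detected too. These are 2810025M15Rikl with Rasal2, whose product is a RAS GTPase-activating protein, at 324 bases, LOC100365289 with Ppp2r3b, a phosphatase 2A subunit, at 210 bases, and LOC100912041 with Slc3a2, the heavy chain of amino acid transporters, at 271 bases. Gas5 was detected while its partner Zbtb37, a zinc finger gene 363 bases away, was detected on no array. LOC100911177 (518 bases from Znfx1) and LOC100911627 (53 bases from Rsl1d1) were detected, and no probe was matched to their partners.

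The reverse state was also seen. LOC100910237 was detected on no array while its partner Rps12, a ribosomal protein gene 186 bases away, was detected on all 4. The same held for LOC100912071 with Pgm2l1 (415 bases), LOC102548847 with Ptprn2 (158 bases) and Sert1 with Gzf1 (231 bases). LOC100910945, 39 bases from Tet1, was not detected, and no probe was matched to Tet1. Detection of a long non-coding RNA and of its partner thus did not always go together among the 8 pairs in which both had a probe, and these counts are a description.

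Long non-coding loci with a microRNA gene inside were 2, H19 and Meg3, both imprinted genes that are transcribed from the maternal copy. H19 contains Mir675 and Meg3 contains Mir770. The mature RefSeq sequences (GRCr8) are shown because the arrays read only the long hosts, with the seed, bases 2 to 8, in capitals.
rno-miR-675-5p (chr1:207161800-207161821, minus strand): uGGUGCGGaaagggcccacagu
rno-miR-675-3p (chr1:207161766-207161786, minus strand): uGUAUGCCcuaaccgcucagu
rno-miR-770-5p (chr6:134298094-134298115, plus strand): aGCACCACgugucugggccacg
rno-miR-770-3p (chr6:134298129-134298145, plus strand): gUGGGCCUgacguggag

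No seed is shared among the 4. H19 was detected on no array, and Meg3 on replicate 1 only, by 1 of 2 probes (A_44_P1145890), with signals of 25.0, 8.57, 7.42 and 7.37. The 10-spot Meg3 probe was detected on no array, and its spots differed within an array by a median SD of 0.608. Neither host thus had a measured level in more than 1 replicate. These are the 2 genes with a probe among 17 microRNA hosts, and with Jpx, an activator of X inactivation that was also undetected, the 3 with a probe among 14 imprinting and dosage transcripts. None of 17 microRNA genes studied in macrophages was matched to a probe.

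Apart from Meg3 and Tincr, 5 non-coding probes were detected on some arrays only. Abhd11-as1, antisense to the hydrolase gene Abhd11, read 134.5 on replicate 1 and 2.40 to 2.57 on the others. RT1-CE6, of the rat class I histocompatibility region, read 23.6 on replicate 1, and 6.85, 2.14 and 10.0 on replicates 2 to 4. The unnamed record NR_126572 read 25.6 on replicate 1 and 2.40 to 2.75 elsewhere. On replicate 2 alone, LOC690120 was detected at 14.7 and Lin28c at 12.5. Both read slightly higher on replicate 1, at 16.4 and 14.7, but that lay below the lowest detected signal there, 22.3.

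The transcribed pseudogenes detected came from 3 of 14 loci. Prrc2c, which codes for a large RNA-binding protein in other mammals and has a non-coding record here, was detected on all arrays by 5 of 5 probes, with means of 4.00 ± 0.10, 3.04 ± 0.10, 2.83 ± 0.28, 1.66 ± 0.23 and 1.58 ± 0.14. The probe A_64_P219062 was lowest on replicate 1 (2.47, 2.74, 3.02 and 3.09), and the other 4 were not. Gapdh-ps1, a copy of the glycolytic gene Gapdh, was at 4.16, 3.88, 3.94 and 4.00 on 1 probe (A_44_P1363134, 4.00 ± 0.12). On the other (A_64_P005659) it was at 0.95, 0.016, 0.038 and -0.22 (0.20 ± 0.51), highest on replicate 1 by a 2.24-fold range that did not pass (limma, adjusted p = 0.555). Selenok-ps2, a copy of the gene for selenoprotein K of the endoplasmic reticulum, was detected by 1 probe at 2.88, 2.84, 2.48 and 2.53 (2.68 ± 0.21), and by its other probe on no array. A probe for a pseudogene can also bind the transcript of its parent gene, so these values are uncertain, and cross-binding was not tested. Of the 16 loci with several probes, 3 had probes that disagreed in detection, namely Meg3, Tug1 and Selenok-ps2.

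Of the 6 records without a symbol, 3 were detected on all arrays. NR_038113 was at 9.51, 9.47, 9.61 and 9.42 (9.50 ± 0.080). NR_027366 was detected by both probes (3.32 ± 0.18 and 2.44 ± 0.14), and NR_045202 was at 0.93 ± 0.13. NR_027235 and NR_002706 were detected on no array. The SD of NR_038113 was below the median SD of all tested probes, 0.164.

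**Figure D4:**
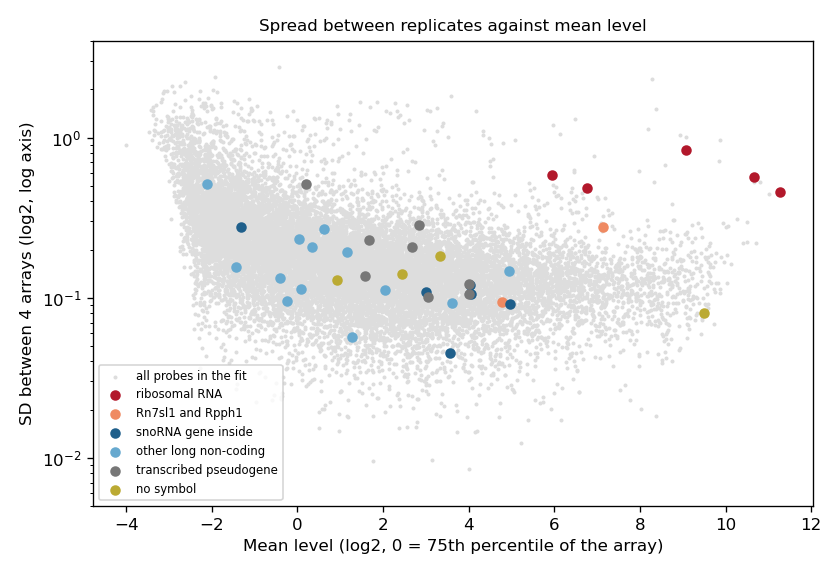
SD between the 4 arrays (log2 units, logarithmic vertical axis) against mean level (log2, 0 is the array's 75th percentile) for the 17530 tested probes (grey) and the 38 tested non-coding probes (colours by kind). The 5 ribosomal probes, with SD from 0.46 to 0.84, lie above most grey points of their level, and NR_038113 lies low at 0.080.

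The tested non-coding probes had a median SD near that of the whole array. It was 0.144 (5th to 95th percentile 0.077 to 0.574), against 0.164 (0.06 to 0.568) over all 17530 tested probes. With spike-in scaling it was 0.265 against 0.252, so which median was larger depended on the processing. The lowest array of the non-coding probes was replicate 1 for 10, replicate 2 for 11, replicate 3 for 4 and replicate 4 for 13, or 26.3%, 28.9%, 10.5% and 34.2%. Over all tested probes these shares were 40.1%, 13.8%, 14.9% and 31.2%, and the difference was not tested. In simulated data with 200 probes given 4 times their SD the test recovered 1, and with 8 times 76, so only very large spread could have been called with 4 arrays.

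The proteins that work with these RNAs were measured by messenger RNA probes. A gene counted as detected if any of its probes was, and its level and spread test are those of its probe with the highest level. Counted by probe, 48.0% of all curated messenger RNA probes were detected on all arrays, and 0.473% of all tested probes passed the spread test. Of 10 proteins of small nucleolar ribonucleoproteins and the nucleolus, 9 had a probe and all 9 were detected on all arrays, with 0 passing the spread test in limma. Fbl, the methyltransferase guided by box C/D small nucleolar RNAs, averaged 6.75 ± 0.14, its partners Nop56 and Nop58 averaged 4.38 ± 0.17 and 2.10 ± 0.18, and Dkc1, the pseudouridine synthase, averaged 4.12 ± 0.10. Of 13 microRNA processing proteins, 8 had a probe and 6 were detected, among them Drosha, the nuclear RNase (4.24 ± 0.14), and its partner Dgcr8 (1.04 ± 0.098), while Ago1 and Ago3, which carry microRNAs, were not. All 10 paraspeckle proteins were detected, such as Sfpq (2.90 ± 0.045), and 9 of the 10 nonsense-mediated decay factors with a probe out of 14, such as Eif4a3 (5.79 ± 0.089), with Upf2 undetected. In each of these lists 0 genes passed the spread test in limma, with lowest adjusted p of 0.974 to 0.987, and Snu13 was the only 1 to pass before adjustment.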

How the data were processed

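The deposited files hold intensity per spot on a linear scale, background-subtracted and detrended within each array by Agilent Feature Extraction 11.0.1.1 (the submitters' processing notes and, per the file headers, the scanner software itself name that version). Total RNA was labelled with Cy3 from 100 ng, per the labels' protocols. Control spots and spots marked non-uniform (1, 7, 0 and 6 on replicates 1 to 4) were left out, which removed 12 probes. No spot was saturated. From the deposited intensity, log2 values were averaged over the spots of a probe and each array's 75th percentile over probes was subtracted. A probe counted as detected on an array if at least 50% of its spots carried the mark. Accessions were matched to RefSeq symbols of GRCr8 (21101 probes, 46.3%). The array design names an older build, so no other coordinate is given. Promoter and microRNA sequences are RefSeq's for GRCr8, and 60 members had a promoter there.

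The spread test used lmFit with an intercept and squeezeVar with a trend in limma 3.58.1 (R 4.3.3, prior degrees of freedom 6.9), with tables made in Python 3.11.15 and pandas 2.3.3. It was tested on data simulated from the same 17530 probes: with no change it made 0 calls, and with SDs multiplied by 8 it made 1 false call. With 1 group there was no contrast, and the number of arrays limits precision.

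Members and lists were chosen with earlier results of these data known. Probes named were those on a list, those that passed, the 10 with the smallest adjusted p, the 10 with the highest level, the 5 with the smallest SD, those with a symbol detected on some arrays only, loci whose probes disagreed, and those behind counts of 5 or fewer. Alternatives covered the filter, scaling, background, prior, probe choice and each array left out.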

Additional observations from a re-analysis of the deposited data

Results flagged for a closer look

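Of the 44 non-coding probes detected on at least 1 array, 2 had 1 array far from the other 3, judged by the gap to the nearest array as a share of the whole range over arrays (Dixon's ratio). For Abhd11-as1 the ratio was 0.89, with a level of 0.30 on replicate 1 against -5.25, -4.73 and -4.63 on replicates 2 to 4, where the probe was not well above background. For LOC690120 the ratio was 0.961, with -4.50 on replicate 4 against -2.73, -2.67 and -2.74 on the others, and it was well above background on 1 array only. Chance marks about 1 in 20 such groups.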

How the results depend on the processing

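With the limma spread test, 83 of all tested probes, 1 of the 38 non-coding ones and a non-coding median SD of 0.144 were the values reported. The count of all probes became 472 with no filter on dim probes, 1 with the percentile taken over detected probes, 24 with quantile normalization, and 0 with a robust prior (98 before adjustment) or a prior without trend (1035 before adjustment). Settings added after seeing the data gave 277 (normexp on median signals), 228 (spike-in scaling) and 40 (no scaling). Leaving out 1 array gave 34 to 176. The non-coding count became 4 of 117 with no filter (Rn45s, Rn5-8s, Rn18s and Abhd11-as1), and 3 with normexp or with spike-in scaling. It became 0 with the percentile over detected probes (8 before adjustment in limma), quantile normalization (5), a robust prior (0), a prior without trend (3), 1 probe per gene (3), no scaling (1) and without the ribosomal probes (1). Without an array it ran from 0 (without replicate 2 or 4) to 3 (without replicate 3, all Rn45s). For the Rn45s probe A_44_P1090387 the limma adjusted p was 0.108 over detected probes, 0.0671 with quantile normalization, 0.994 with a robust prior, 0.586 without trend, 0.156 and 0.203 without replicates 2 and 4, and 0.886 unscaled. It stayed under 0.05 in the other fits that held this probe, from 8.5e-10 (normexp) to 0.0363 (without replicate 1). The non-coding median SD was 0.332 with no filter, 0.166 over detected probes, 0.20 with normexp and 0.129 with 1 probe per gene. It was 0.265 with spike-in scaling, 0.431 unscaled, and 0.13 to 0.157 without an array. Over all tested probes the same settings gave 0.326, 0.157, 0.15, 0.161, 0.252 and 0.421, and 0.134 to 0.173 without an array. The non-coding median was thus higher than that of all tested probes in some settings and lower in others. The 37 of 117 members detected on all arrays became 32 of 112 without the ribosomal or the Prrc2c probes. They became 44 on at least 1 array, 46 with the software's weaker mark, and 37 to 38 without an array. Of all 45586 probes, 15740 were detected on all arrays and 20140 on at least 1. With the weaker mark 20362 were, and without an array 15749 to 16382. Of the levels of single named members, 196 moved by less than 1 SD and 70 by more. The 70 include shifts of the zero of the scale itself. With the percentile over detected probes every mean level fell by the same amount, as for Gas5 from 4.96 to 1.44 and Tug1 (A_43_P10908) from -0.25 to -3.77. Of the spread tests of these members, 507 kept their side of the threshold, 8 passed and 7 no longer did. Normexp on mean signals was not run, since that column was not used here. Members detected on no array have only a bound. No paired analysis was possible because there is 1 group.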
